A study of Mus musculus with 17 samples.

Results

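The genes described here are 42 genes of the G2 phase of the cell cycle and of mitosis, taken by gene symbol from a fixed list out of 24537 genes in each table. All 42 were present in the tables of all 17 libraries. The rule matches symbols and uses no measured value. RNA was measured by Smart-seq2, an RNA-seq protocol for small cell numbers, in sorted mouse lymphocytes. There were 6 groups. Gata3-YFP reporter mice (GATIR), in which a fluorescent protein marks cells that transcribe the Th2 regulator Gata3, gave 3 libraries of Th2 cells from bronchoalveolar lavage fluid (the airway) and 3 from the mediastinal lymph node, which drains the lung. Mice with the OTII transgene, which gives CD4 T cells a receptor for an ovalbumin peptide, gave 3 libraries of lymph node Th2 cells without a further change (wild type) and 4 labelled as a Notch1/2 knockout. The reporter and OTII mice that gave airway or node cells had an airway inflammation driven by an allergen. Naive spleen T cells of both OTII genotypes were also grown for 7 days on plates coated with anti-CD3 and anti-CD28, with IL-4 and blocking antibodies against IFN-γ and IL-12/23 (culture, 2 libraries each). The labels give no age, no Cre driver and no allergen dose. They call the replicates biological without saying which libraries come from separate animals, and the column headers of the OTII node tables carry a number in 2 parts that may mark a shared source, so p-values measure the spread between these libraries.

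A cell that has copied its DNA enters mitosis when the kinase Cdk1, bound to cyclins A and B, is activated by Cdc25 phosphatases. Polo-like and Aurora kinases, kinesin motors and kinetochore proteins then build the spindle and attach the chromosomes, and a checkpoint holds the cell until every chromosome is attached. Cdc20 next turns on the anaphase promoting complex, a ubiquitin ligase that with the enzyme Ube2c marks securin (Pttg1) and cyclin B for destruction, and the cell divides. Most of these genes are silent in resting lymphocytes and are transcribed late in the cycle of dividing ones. Their promoters are known to be held off by the DREAM complex and turned on by B-Myb and Foxm1, through a short motif called the cell cycle homology region (CHR) and nearby CCAAT boxes, which bind the factor NF-Y. Activated T cells pass through rapid divisions in the lymph node before they leave it as effector cells.

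The RefSeq promoter table (GRCm38.p6, 250 bases before to 50 after a gene's start) held 35 of the 42 genes. Of these, 31 had the start used in the deposited tables. The CHR, searched as TTTGAA or TTCGAA on both strands, was found in 28 of the 35 promoters (80.0%), against 19.4% of all 27025 promoters in that table. Within 50 bases of the start it was found in 26 (74.3%), against 5.29% of all. The CCAAT box, searched as CCAAT on both strands, was found in 27 (77.1%), against 37.9% of all. Both motifs were found in 25 promoters (71.4%), against 7.70% of all. The forkhead core TGTTTAC, the kind of site a Foxm1 DNA-binding domain recognises, was found in 1 (2.86%), against 3.55% of all. TTCGAA reads the same on both strands, and none of these motifs lies within another. No other spelling of the CHR was searched. The first 4 sequences are shown because these genes carry the results below and hold both motifs. The others are shown because they moved with the rest, or apart from it, and hold no CHR match in this window. Each runs from 120 bases before the start to 20 bases after it, on the strand of the gene, with CHR and CCAAT matches in capitals (on the opposite strand these read TTCAAA and ATTGG). The stretches are chr2:164769809-164769948 (plus strand) for Ube2c, chr4:118437324-118437463 (minus strand) for Cdc20, chr10:69352893-69353032 (minus strand) for Cdk1, chr2:131186828-131186967 (plus strand) for Cdc25b, chr13:100786467-100786606 (minus strand) for Ccnb1, chr11:117849117-117849256 (plus strand) for Birc5 and chr11:43425962-43426101 (minus strand) for Pttg1.
Ube2c: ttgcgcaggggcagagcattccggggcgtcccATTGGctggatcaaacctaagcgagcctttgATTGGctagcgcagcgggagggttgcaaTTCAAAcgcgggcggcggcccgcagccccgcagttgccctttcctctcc
Cdc20: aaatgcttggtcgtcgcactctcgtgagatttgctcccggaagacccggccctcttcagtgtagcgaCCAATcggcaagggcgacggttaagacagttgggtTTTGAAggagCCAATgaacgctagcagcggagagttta
Cdk1: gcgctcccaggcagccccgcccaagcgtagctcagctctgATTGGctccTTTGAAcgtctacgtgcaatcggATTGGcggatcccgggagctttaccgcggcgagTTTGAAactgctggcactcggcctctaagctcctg
Cdc25b: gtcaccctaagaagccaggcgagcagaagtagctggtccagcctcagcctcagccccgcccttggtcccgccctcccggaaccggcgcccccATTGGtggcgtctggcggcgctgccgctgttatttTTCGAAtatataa
Ccnb1: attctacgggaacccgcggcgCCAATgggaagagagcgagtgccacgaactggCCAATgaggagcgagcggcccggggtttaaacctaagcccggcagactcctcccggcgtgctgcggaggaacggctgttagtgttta
Birc5: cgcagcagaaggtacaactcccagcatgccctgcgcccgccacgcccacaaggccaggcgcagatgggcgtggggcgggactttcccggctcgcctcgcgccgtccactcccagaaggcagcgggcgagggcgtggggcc
Pttg1: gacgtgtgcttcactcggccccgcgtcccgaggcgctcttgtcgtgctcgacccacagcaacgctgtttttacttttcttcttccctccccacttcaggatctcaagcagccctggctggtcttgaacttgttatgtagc
In Ube2c, Cdc20, Cdk1 and Cdc25b a CHR match lies in the printed stretch together with 1 or more CCAAT matches. Ccnb1 holds CCAAT matches alone, and the stretches of Birc5 and Pttg1 hold neither. The start that RefSeq's table uses for Pttg1 is 267 bases from the start in the deposited tables. A match is a run of letters, and binding was not measured.

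Total depth was 16.3 to 27.5 megareads per library, worked out from the steps of the low deposited RPKM values (reads per kilobase of transcript, relative to library depth). Values below are RPKM after scaling each library by 1 factor (scaled RPKM), and differences are on the log2(scaled RPKM + 1) scale. In the airway libraries 17394, 12133 and 18728 reads lay on the 42 genes, in the node reporter libraries 68796 to 114742 and in the OTII libraries 105906 to 208311. The 3 airway libraries listed 6, 14 and 1 of the 42 genes at 0, and no other library listed any at 0. Of 3073 genes with at least 20 scaled RPKM in all OTII libraries, the airway libraries listed 38, 49 and 2 at 0 and each other library at most 1, so a 0 in an airway library may be a transcript that was missed. Summed levels of 19 macrophage marker genes were 4476, 8723 and 4097 in the 3 airway libraries and 493 to 751 in the node reporter libraries, where 10 of the markers, among them Marco, Mrc1 and Adgre1, were at 0 throughout. Sums of 8 basophil and mast cell markers were 179 to 319 in the airway and 593 to 915 in the reporter node, and at most 16.1 in the OTII libraries. Of these markers 5 (Fcer1a, Ms4a2, Cpa3, Prss34 and Gata2) were at 0 in all airway libraries. The same genes apart from Cpa3 were at 0 in all reporter node libraries. Sums of 7 Th2 markers were 1462 to 1554 in the airway, 1089 to 1693 in the reporter node and 143 to 207 in the OTII node. The sums of 15 T cell genes were 6852 to 7704 in the airway and 6249 to 6967 in the node reporter libraries. Notch1 had 46.2 to 48.9 in the wild type node libraries and 8.01 to 12.9 in the knockout-labelled ones. In culture Notch1 had 26.3 and 29.4 against 4.23 and 1.06. Notch2 was not lower in the labelled knockouts (14.1 to 18.7 against 7.53 to 8.08 in the node, 6.64 and 7.16 against 7.37 and 7.65 in culture); an exon loss could be hidden in a level summed over the full transcript.

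Several libraries stood apart from their own group in these 42 genes. Node knockout-labelled library 2 lay above the mean of the other three of its group, on the log2 scale, for 34 of the 42, by up to 0.98 for the checkpoint kinase Bub1 and by a median of 0.24. Across the 42 genes this deviation ran against the GC content of the transcript (Pearson's r = -0.85, n = 42 genes of the same libraries). The deviation of node wild type library 3 from its group (r = -0.83) and the difference of culture wild type library 1 from library 2 (r = -0.91) did likewise. The 42 transcripts range from 40.8% GC in Mad2l1 to 56.0% in Plk1. Culture knockout-labelled library 2 lay above library 1 for 41 of the 42 genes, with a weaker slope on GC (r = -0.17). Results that rest on these libraries are given below with and without them.

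**Figure D1:**
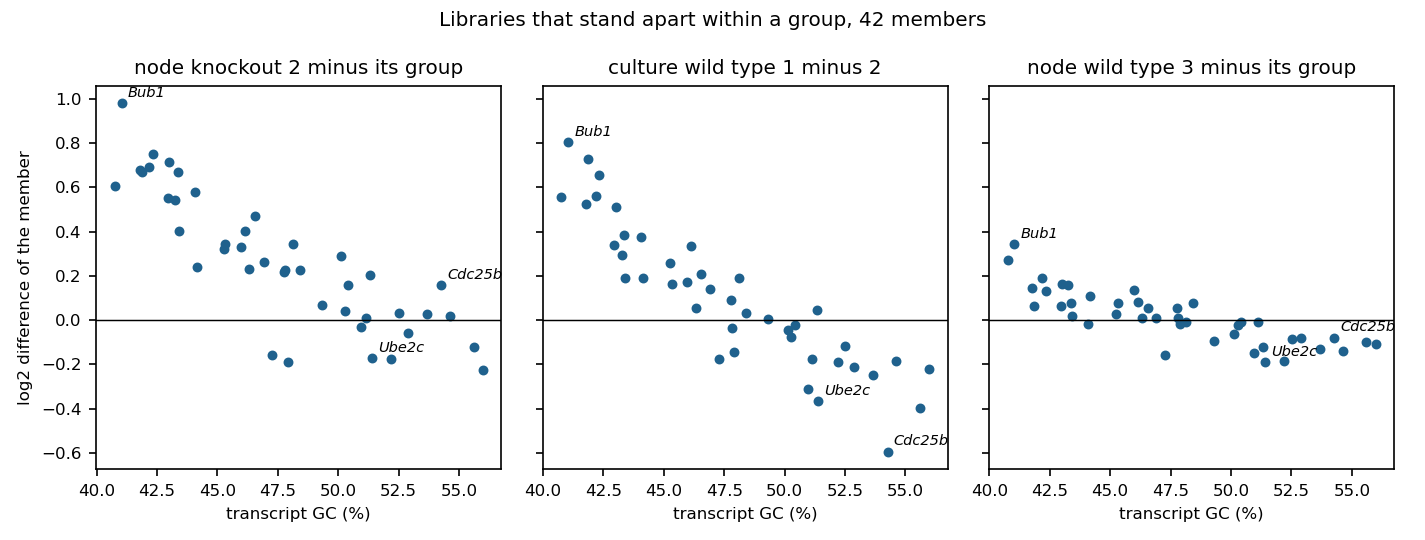
Each point is 1 of the 42 genes, with the GC content of its transcript (%) on the x axis and, on the y axis, the log2 difference of 1 library from the rest of its group. Bub1, at low GC, lies near the top of all 3 panels (0.98, 0.80 and 0.34), and Ube2c lies below 0 in each.

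The median of their mean levels was 6.11 scaled RPKM in the airway, 35.4 in the reporter node, 45.5 in the wild type OTII node, 40.5 in the knockout-labelled node, 62.1 in wild type culture and 60.5 in knockout-labelled culture. The sum over the 42 genes was 307, 456 and 489 in the airway libraries and 1609 to 2432 in the reporter node. In the OTII groups it was 2246 to 2616 (wild type node), 1845 to 2314 (knockout-labelled node), 3236 and 3289 (wild type culture) and 2974 and 3527 (knockout-labelled culture). The airway libraries are thus the lowest and the culture libraries the highest, while the 3 node groups overlap in this sum. In these bulk libraries fewer dividing cells and less RNA of these genes per cell cannot be told apart. The most abundant members per length in the OTII groups were Cdc25b, Top2a, Birc5, Ube2c and Mki67, and the least abundant was Anln, the scaffold protein anillin of the contractile ring, at 7.05 in the wild type node and 11.6 in wild type culture.

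**Figure D2:**
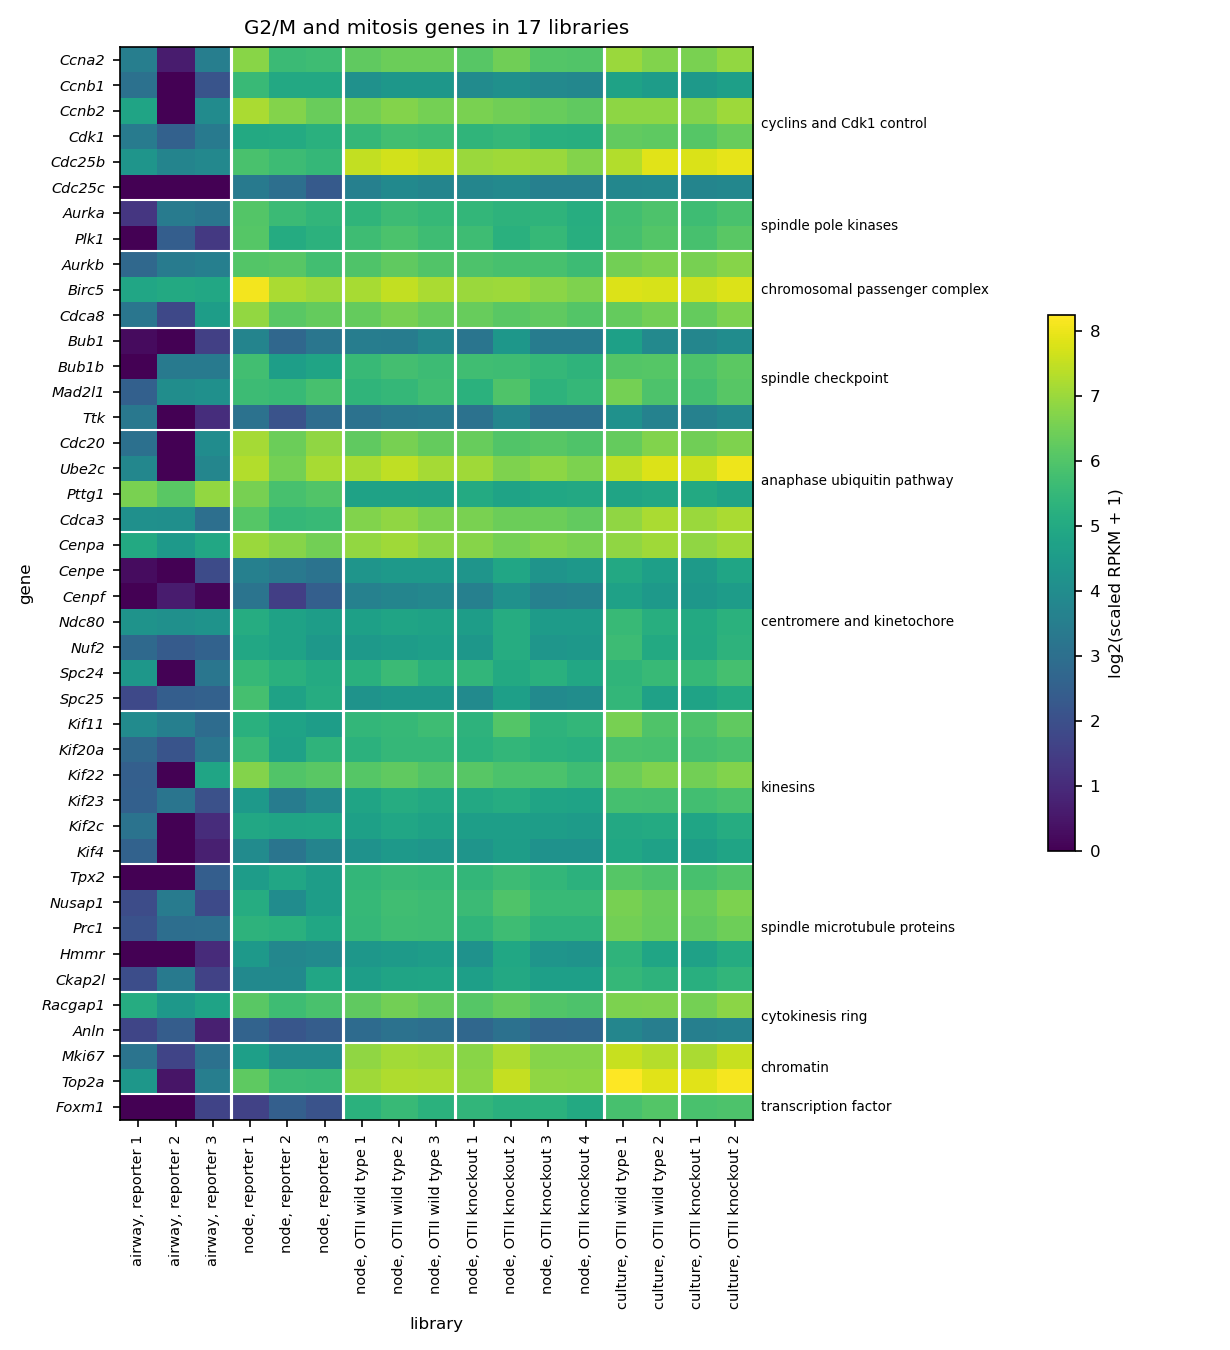
Rows are the 42 genes in order of role and columns the 17 libraries, with colour giving log2(scaled RPKM + 1). The 3 airway columns are darkest for nearly all rows, except Pttg1, whose airway and reporter node columns are brighter than its OTII columns.

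Airway cells had far less mitotic RNA than lymph node cells of the same mouse line. The test was limma across 10111 genes with Benjamini-Hochberg adjustment, here and in all later comparisons, with a threshold of 0.05. Of the 42 genes, 25 fell (59.5%), none rose and 17 did not pass, where 2.30% of all tested genes fell and 2.97% rose. At an unadjusted p under 0.05 there were 38, against 19.9% of all tested genes. The median difference was -2.52 against -0.07 over all tested genes, and 41 of the 42 differences were below 0, where 54.4% of all tested genes were. The groups did not overlap in 38 of the 42 (90.5%), all lower in the airway, against 13.8% of all tested genes. All 42 passed the filter on low values, which all 42 met in the 3 node libraries and 21 met in all 3 airway libraries. Of the 25 genes with a value above 0 in every airway library, 15 fell.

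Of the 6 genes that control Cdk1, 5 fell. Cdk1 itself, the kinase that drives entry into mitosis, had 9.87, 4.96 and 9.34 in the airway and 31.1, 31.7 and 36.6 in the node. The groups were well apart, and Cdk1 fell by 1.96 ± 0.35 (SE, adjusted p = 0.0144). Ccnb1, cyclin B1, had 7.47, 0 and 3.45 in the airway against 46.7, 30.7 and 30.5 in the node, a difference of -3.44 ± 0.72 (adjusted p = 0.0278). Ccna2, cyclin A2, had 10.6, 0.555 and 10.5 against 109, 47.9 and 49.9 (adjusted p = 0.0313). Airway library 2 was the lowest for all 3 of these genes, and in no case did an airway library reach a node library. Cdc25b, a phosphatase that activates Cdk1, fell less, by 1.73 ± 0.27 (adjusted p = 0.00949), with 12.1 to 18.7 against 43.5 to 58.2. Its relative Cdc25c was listed at 0 in all 3 airway libraries and had 9.42, 7.14 and 4.08 in the node. Against a floor of 3 reads per airway library that is 82.1-fold lower. This is no lower bound, since a 0 in an airway library may be a transcript that was missed. On the scale used the difference of Cdc25c was -2.92. Ccnb2, cyclin B2, was lower in every airway library (27.2, 0 and 14.9 against 81.9 to 147) and did not pass (-3.83 ± 1.03, adjusted p = 0.0725).

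Of the 4 genes of the anaphase ubiquitin pathway 3 fell, and Pttg1 was the sole gene of the 42 with a higher value. On the scale used, with its pseudocount of 1, Ube2c and Cdc20 had the largest differences. Ube2c, the ubiquitin-conjugating enzyme of the anaphase promoting complex, had 13.2, 0 and 12.9 in the airway and 158, 90.5 and 141 in the node, a difference of -4.45 ± 0.89 (adjusted p = 0.0241). Cdc20, which activates that complex, had 7.25, 0 and 15.0 against 139, 82.2 and 117, a difference of -4.45 ± 0.85 (adjusted p = 0.0201). Both differences rest in part on the 0 of airway library 2, and the other airway libraries also lay below every node library. Cdca3, a trigger of mitotic entry, fell by 1.97 (adjusted p = 0.018), with 6.98 to 16.6 against 43.6 to 66.4. Pttg1, securin, which holds the protease separase inactive until anaphase, went the other way in value. It had 94.7, 69.6 and 119.6 in the airway and 92.1, 56.4 and 63.3 in the node. Those groups overlap, and the difference did not pass (0.41 ± 0.26, adjusted p = 0.426). With a mean of 94.6 ± 25.0 (SD, n = 3) it was the most abundant of the 42 genes in the airway.

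Both kinases of the spindle poles and all 3 genes of the chromosomal passenger complex fell. Plk1, polo-like kinase 1, had 0, 4.57 and 1.56 in the airway against 66.5, 32.8 and 38.0 in the node, a difference of -4.20 ± 0.63 (adjusted p = 0.00804). Aurka, the Aurora kinase of the spindle poles, had 1.48 to 9.67 against 41.7 to 65.3 (adjusted p = 0.0152). Birc5 (survivin), the targeting subunit of the passenger complex, had 28.1, 30.9 and 29.8 in the airway and 272, 147 and 131 in the node. Its airway values lie close together, while node library 1 stood well above the other 2. Birc5 fell by 2.52 ± 0.27 (adjusted p = 0.00178), the smallest adjusted p among the 42. Aurkb, the kinase of the complex, had 5.96, 9.86 and 10.9 against 64.4, 67.1 and 53.2, a difference of -2.69 ± 0.30 (adjusted p = 0.00199). Cdca8 (borealin), another subunit of the complex, had 8.52, 2.47 and 22.9 against 118, 69.3 and 78.2 (adjusted p = 0.018). Birc5 and Aurkb passed under all 14 other settings run on this comparison, with highest adjusted p-values of 0.0315 and 0.0284. Other genes that fell were less stable. Plk1 missed the threshold under 5 of the 14, Cdk1 under 3, Ube2c and Cdc20 under 6 each and Ccnb1 under 7. Of the genes described below, Hmmr missed it under 1, Tpx2 under 6 and Kif2c under 7.

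At the kinetochore, the protein plate that ties chromosomes to the spindle, 4 of 7 genes fell. Cenpa, the histone variant that marks centromeres, had 31.4, 20.4 and 29.6 against 126, 107 and 88.2 (adjusted p = 0.00378). Spc25 and Nuf2, subunits of the Ndc80 complex that grips microtubules, fell by 2.95 and 2.10. Cenpe, a kinetochore motor, fell by 2.64, from a low level (0.205, 0 and 2.65 against 7.76 to 11.1). Cenpf (-2.15, adjusted p = 0.0672) and the Ndc80 complex subunit Spc24 (-2.72, adjusted p = 0.14) did not pass. Ndc80, the subunit that names the complex, had 17.8, 16.5 and 17.7 against 33.8, 25.8 and 22.9. Its groups do not overlap, but the difference was small and did not pass (-0.62 ± 0.28, adjusted p = 0.256). Of the checkpoint genes, Bub1 (0.185, 0 and 1.98 against 5.68 to 12.2) and Mad2l1 (4.76, 15.6 and 16.8 against 46.1 to 56.4) fell. Bub1b, the checkpoint kinase-like protein BubR1, and Ttk, the kinase Mps1, did not pass. Ttk had 8.76, 0 and 1.11 in the airway against 7.65, 3.30 and 6.74, so that airway library 1 lay above the whole node group.

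Of the 6 kinesins 2 fell, Kif2c, which takes microtubules apart (7.91, 0 and 1.05 against 27.2 to 29.8, -3.47, adjusted p = 0.0291), and Kif20a, a motor of the dividing midzone (3.45 to 8.49 against 25.2 to 47.0, adjusted p = 0.0107). Kif22, a chromosome-arm motor, had 4.63, 0 and 27.7 against 63.8 to 105 and did not pass (-3.84 ± 0.98, adjusted p = 0.0609). Kif4, Kif11 and Kif23 also did not pass, with differences of -2.53, -1.39 and -1.35. Of the 5 spindle microtubule proteins 3 fell. Tpx2, which activates Aurora A on the spindle, was close to 0 in 2 airway libraries (0.0134 and 0) with 4.49 in the third, against 22.3 to 28.3 (-3.84 ± 0.69, adjusted p = 0.0154). Hmmr, a spindle-pole protein, was listed at 0 in 2 airway libraries and had 1.002 in the third, against 13.2 to 21.0 (-3.74 ± 0.52, adjusted p = 0.00663). Prc1, which bundles midzone microtubules, fell by 2.46. Nusap1, a spindle assembly protein measured under another transcript in reporter tables than in OTII ones, missed the threshold narrowly (-2.16 ± 0.54, adjusted p = 0.0538). Ckap2l, another spindle protein, also missed it (-1.94, adjusted p = 0.0875).

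The chromatin genes and the transcription factor were lower in value without passing. Mki67, the proliferation antigen that coats mitotic chromosomes, had 8.03, 2.22 and 7.52 against 24.3, 14.9 and 14.7 (-1.56 ± 0.50, adjusted p = 0.121). Top2a, the topoisomerase that untangles sister DNA, had 19.5, 0.370 and 10.6 against 72.4, 47.8 and 46.7 (-3.01 ± 0.85, adjusted p = 0.0834). Neither gene's groups overlap. Foxm1, the forkhead factor that activates many G2 genes, was low in both groups, with 0, 0 and 2.19 against 2.09, 4.59 and 3.36, and did not pass (-1.52 ± 0.61, adjusted p = 0.204). Racgap1, a regulator of the division furrow, fell by 1.14 (adjusted p = 0.0391), and Anln did not pass.

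The count of 25 depends on the node libraries. Without node reporter library 1, 2 or 3 it was 4, 7 and 4, and without 1 airway library it was 23 to 29. The count of all tested genes that fell dropped too, from 233 to 43, 45 and 30 without a node library, and it was 209 to 295 without an airway library. With a pseudocount of 0.1 in place of 1 the count for the 42 genes was 14. For them it was 11 with no filter on low values and 9 with limma's voom on reads. Of all tested genes 146, 98 and 88 fell under these settings in turn. Airway library 2, with the highest macrophage marker sum, also had the lowest mean of the 42 genes (1.96, against 2.65 and 2.87 in the other airway libraries and 4.77 to 5.31 in the node, as mean log2 values). The part of macrophage RNA in the result was not tested. With scaling to the T cell genes 28 of the 42 fell (2.70% of all tested genes), by a median difference of -2.56. Under the RPKM as deposited, all tested genes split into 229 higher and 317 lower, against 300 and 233 with scaling, and 27 of the 42 fell.

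**Figure D3:**
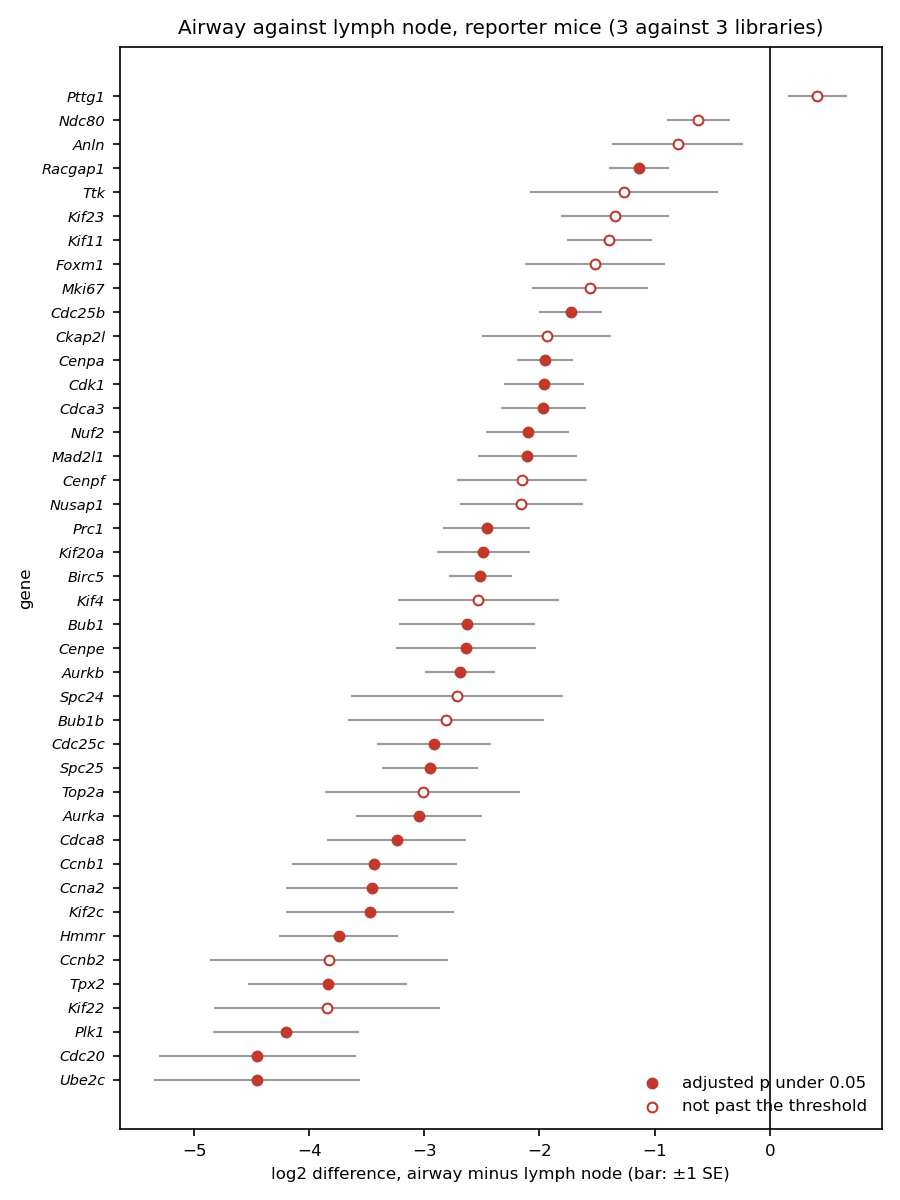
Points are the log2 differences of the 42 genes, airway minus lymph node in reporter mice (3 against 3 libraries), with bars of 1 SE. Filled points passed the threshold, and Pttg1 is the sole gene to the right of 0.

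Other cell cycle genes moved alongside. Among 56 further mitosis genes 22 fell and none rose (median -1.59), led by the smallest p-values of Hmgb2 (60.7 against 198), Tacc3 and Melk. Among 30 genes of the G1 to S transition and DNA replication 11 fell and none rose (median -1.76), with Mcm5, a subunit of the replicative helicase, at 19.8 against 79.1. Of 14 genes for the anaphase promoting complex 1 fell (median -0.42), and of 12 genes for DREAM and its relatives none passed (median -0.42). Of 8 tested cell cycle inhibitors none fell, and 1 rose, the antiproliferative gene Btg1 (111 against 40.6, 1.45 ± 0.20, adjusted p = 0.00609). Of the 28 genes with a CHR match 15 fell (median -2.49), and of the 7 genes without one 5 fell (median -2.16).

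In the lymph node of OTII mice the knockout label went with slightly lower values of most of the 42 genes, and 4 of them fell. They were Cdc25b, Ube2c, Birc5 and Ccnb1, and none rose. That is 9.52% of the 42, where 7.68% of the 10869 tested genes fell, so the share called was near the background, and 10.4% of all tested genes rose. At an unadjusted p under 0.05 there were 12 of the 42, against 32.2% of all tested genes. The median difference was -0.16 against 0.02 over all tested genes, and 37 of the 42 differences were below 0, where 47.0% of all tested genes were. Of the 42, 9 were lower without overlap of the groups (21.4%), against 14.1% of all tested genes. They were the 4 named with Cdk1, Cdca3, Cenpa, Aurkb and Kif2c. Pttg1 alone was higher without overlap (26.7 to 32.1 against 25.6 to 26.0), as were 17.2% of all tested genes, and it did not pass (adjusted p = 0.144).

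Cdc25b had the largest difference. It had 179.6, 205 and 181 scaled RPKM in the wild type libraries and 127, 133, 128 and 104 in the knockout-labelled ones. All 4 lay well below the wild type group, at 123 ± 13.1 (SD, n = 4) against 189 ± 13.9 (SD, n = 3), and Cdc25b fell by 0.62 ± 0.10 (adjusted p = 0.00405). It passed under all 18 other settings, with a highest adjusted p of 0.0454. Ube2c had 144, 176 and 139 against 132, 100.5, 114 and 96.6, a difference of -0.46 ± 0.13 (adjusted p = 0.035). Knockout-labelled library 1 came close to the wild type group. Birc5 had 143, 177 and 146 against 127, 129.5, 112 and 99.8, a difference of -0.41 ± 0.12 (adjusted p = 0.0415). Ccnb1 had 16.9, 19.5 and 19.7 against 14.6, 16.6, 13.8 and 13.2, a difference of -0.34 ± 0.10 (adjusted p = 0.0456), with the groups barely apart. Cdca3 and Cdk1 had the smallest adjusted p-values among those that did not pass (0.052 and 0.0582). Cdk1 had 44.0, 53.3 and 50.4 against 41.1, 43.7, 36.1 and 35.2.

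The other genes named by rule did not pass. Plk1 had 50.6, 59.3 and 50.8 against 51.0, 36.8, 44.9 and 35.0 (-0.36 ± 0.13, adjusted p = 0.101), and Cdc20 74.6, 92.6 and 77.7 against 78.5, 63.7, 68.0 and 62.5 (adjusted p = 0.139). In both, knockout-labelled library 1 lay inside the wild type range. Foxm1 had 37.6, 45.6 and 37.5 against 41.8, 36.9, 37.3 and 31.0 (adjusted p = 0.486). Mki67 had 117, 136 and 131 against 108, 148, 105 and 107 (adjusted p = 0.498), and Top2a 133, 151 and 149.6 against 114, 184, 117 and 115. In these 2 genes knockout-labelled library 2 was the highest of all 7 libraries and the other three were below the whole wild type group. The differences of all 4 checkpoint genes lay between -0.09 and 0.02, and those of the 6 kinesins between -0.19 and -0.01.

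Without knockout-labelled library 2 the count was 11 lower and 1 higher, with Ccna2, Cdk1, Mki67, Prc1, Racgap1, Spc25 and Top2a added to the 4. The counts over all tested genes also grew there, to 1157 lower and 1559 higher. With the first part of the header number as a block, Cdc25b alone passed, where 626 of the 10869 tested genes fell. With libraries that share that part averaged, 5 of the 42 fell, where 834 of the 10869 tested genes did. Of the 5, Cdc25b and Ube2c were among the 4, and the others were Cdca3, Cenpa and Plk1. Both fits were chosen after the data were seen. After a correction for transcript GC, chosen after the data were seen, 10 of the 42 fell, where 16.3% of all tested genes did. Across the 42 genes the difference itself ran against GC (r = -0.60, n = 42). Cdc25b alone passed without any 1 of the 3 wild type libraries, or without knockout-labelled library 3 or 4 (count of 1 each). With scaling to T cell genes, 4 fell, among them Cdca3 and Cenpa, where 11.2% of all tested genes did, and all tested genes split into 632 higher and 1209 lower, against 1130 and 835. Macrophage marker sums were 312 to 451 in the knockout-labelled and 148 to 176 in the wild type libraries, with the markers Ear2, Ear1 and Car4 at 0 in all of them. Most of each sum was Ctsd, a lysosomal protease (374 against 147), while Cd68 fell (1.22 against 3.34), and their part in the result was not tested. In the other lists, 5 of 30 G1 to S and replication genes fell, led by Rrm2, a subunit of the enzyme that makes deoxyribonucleotides (99.6 against 143), Dut and Pcna. Of 7 tested inhibitors 3 also fell, Cdkn2c, Cdkn2d and Cdkn1b, and of the 56 further mitosis genes 2 fell, Hmgb2 and Cks1b. Ccnd3, the cyclin D3 of early G1, fell by 0.60 (adjusted p = 0.0116), as did Ube2s, the enzyme that lengthens the ubiquitin chains Ube2c begins (adjusted p = 0.0116). Of the 12 DREAM genes 1 rose, Rbl2, which encodes the p130 subunit of DREAM (0.86 ± 0.10, adjusted p = 0.000724).

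In culture, with 2 libraries of each genotype, none of the 42 passed between the labelled knockout and wild type, and none of the 10968 tested genes did (0% called). At an unadjusted p under 0.05 the count was 0 of the 42 and 256 of all tested genes (2.33%), and voom called none of the 42. Of the 42 differences 28 were below 0, where 49.0% of all tested genes were. They ran from -0.37 ± 0.26 for Bub1 to 0.28 ± 0.22 for Cdc25b, with a median SE of 0.17. No member's groups were apart, where 10.8% of all tested genes were lower and 10.4% higher without overlap. Cdk1 had 76.5 and 71.7 in wild type and 65.6 and 78.6 in knockout-labelled culture. Birc5 had 223 and 216 against 196.5 and 222.5. Mad2l1, a checkpoint protein that binds Cdc20, had 90.1 and 61.0 against 54.5 and 67.6, and with Bub1 it had the smallest p among the 42. The differences of Birc5, Aurkb, Plk1, Cdc20, Ube2c, Ccnb1, Cdk1, Mki67, Top2a and Foxm1 lay between -0.12 and 0.19. Cdc25b had 155 and 234 against 219 and 244, with the wide gap between the wild type libraries that the GC plot shows. Bub1 had 24.5 and 13.6 against 12.6 and 15.3, and without culture wild type library 1 its difference was 0.03.

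The genotype differences in node and culture were compared in 1 fit over all 4 OTII groups. None of the 42 passed this test of the difference between differences, where 3.84% of the 11508 tested genes did. At an unadjusted p under 0.05 there were 2 of the 42, against 18.6% of all tested genes. Cdc25b came nearest, lower with the label in node and higher in value in culture (-0.89 ± 0.23, adjusted p = 0.059), followed by Ube2c (-0.65 ± 0.25, adjusted p = 0.189). The higher Cdc25b value in culture rests on wild type library 1 (155). Wild type library 2 (234) lay between the knockout-labelled libraries (219 and 244). Cdc25b passed under 5 of the 19 other settings, among them without knockout-labelled node library 2 (adjusted p = 0.0492). Another of these kept culture wild type library 1 alone in its group. Over the 19 the difference of Cdc25b ran from -1.19 to -0.59. Its adjusted p ranged up to 0.21 over the 19. Of the DREAM genes Rbl2 passed (0.87, adjusted p = 0.0169).

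**Figure D4:**
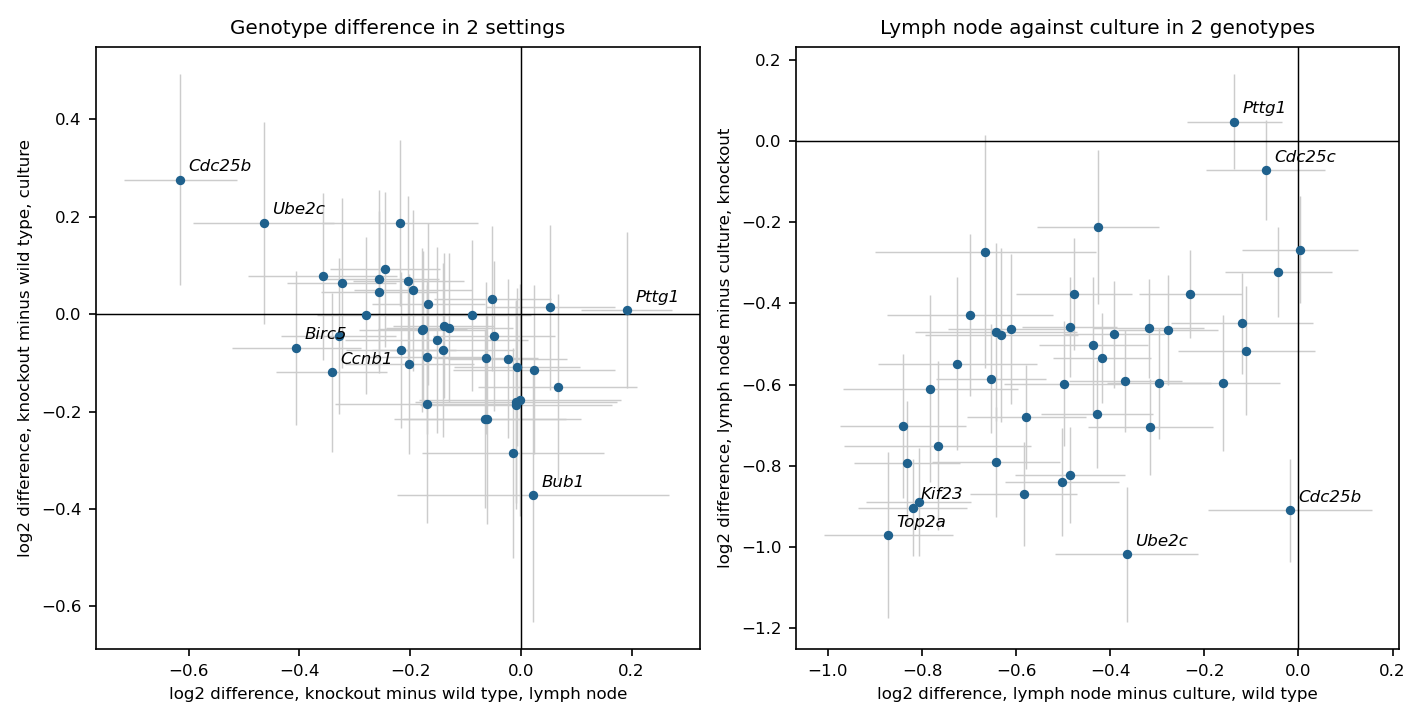
Each point is 1 of the 42 genes with bars of 1 SE. The left panel sets the knockout minus wild type difference in culture (y) against that in the lymph node (x), both on the log2 scale, and Cdc25b is the farthest left and the highest; the right panel sets the lymph node minus culture difference in knockout-labelled cells (y) against that in wild type cells (x), with nearly all points below 0 on both axes.

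Cells from the node had less mitotic RNA than cells from culture in both genotypes. In wild type cells 26 of the 42 genes fell and none rose (61.9%), where 17.5% of the 11108 tested genes fell and 13.5% rose. The groups did not overlap in 34 (81.0%), all lower in the node, against 30.8% of all tested genes. The median difference was -0.48 against -0.03 over all tested genes. In knockout-labelled cells 28 of the 42 fell and none rose (66.7%), where 15.3% of 11227 tested genes fell and 13.7% rose. In each genotype 41 of the 42 differences were below 0, where 52.7% (wild type) and 51.7% (knockout-labelled) of all tested genes were. There, 30 were lower without overlap (71.4%), against 25.9% of all tested genes, and the median difference was -0.57 against -0.02. The comparisons within the node and between node and culture share the node libraries of each genotype. The node and culture groups also differ in tissue of origin, stimulus and time, which cannot be told apart.

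Top2a had the largest fall in wild type cells. It had 133, 151 and 149.6 in the node and 302 and 232 in culture, a difference of -0.87 ± 0.14 (adjusted p = 0.00305). In knockout-labelled cells it had 114, 184, 117 and 115 against 234 and 278 (-0.97 ± 0.20, adjusted p = 0.00904). Both culture groups lay above every node library. Kif23, the kinesin of the midzone complex that positions the furrow, had 27.4, 33.7 and 30.6 against 55.5 and 53.5 in wild type cells (-0.82 ± 0.12, adjusted p = 0.00184). It had 26.8 to 33.2 against 53.4 and 58.2 in knockout-labelled cells (-0.90 ± 0.12, adjusted p = 0.000968). Its culture values were tight in both genotypes. Prc1 had 43.5, 50.3 and 49.4 against 89.1 and 79.4 in wild type (-0.81 ± 0.11, adjusted p = 0.00167), and 38.8 to 50.7 against 74.1 and 84.4 in knockout-labelled cells (-0.89 ± 0.13, adjusted p = 0.00179).

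Cdk1 had 44.0 to 53.3 in the wild type node against 76.5 and 71.7 in culture (-0.58 ± 0.11, adjusted p = 0.00803), and 35.2 to 43.7 against 65.6 and 78.6 in knockout-labelled cells (-0.87 ± 0.13, adjusted p = 0.00171). Birc5 and Aurkb fell in both genotypes, by 0.50 and 0.49 in wild type and by 0.84 and 0.82 in knockout-labelled cells. Foxm1 fell in both, with 40.2 ± 4.67 (SD, n = 3) in the node against 60.4 ± 5.51 (SD, n = 2) in culture in wild type cells. Mki67 fell in wild type cells (-0.44 ± 0.12, adjusted p = 0.0259) and missed in knockout-labelled ones (-0.50 ± 0.17, adjusted p = 0.0563), where node library 2 was the highest. Nusap1, Nuf2 and Cenpf, a large kinetochore protein, were among the largest falls in wild type cells (-0.83, -0.78 and -0.84).

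Some late mitotic genes missed the threshold in wild type cells. All 4 genes of the anaphase ubiquitin pathway and both spindle pole kinases missed the threshold there. Cdc20 had 74.6, 92.6 and 77.7 in the node and 77.0 and 102 in culture, which overlap (-0.12 ± 0.15, adjusted p = 0.572). Ccnb1 missed narrowly, with 16.9 to 19.7 against 26.1 and 22.7 (-0.37 ± 0.12, adjusted p = 0.0526), and Bub1 had 10.1 to 13.2 against 24.5 and 13.6 (adjusted p = 0.0667). Plk1 had 50.6 to 59.3 against 55.3 and 64.6 (adjusted p = 0.346), Ube2c 139 to 176 against 173 and 223 (adjusted p = 0.106) and Cdc25b 179.6 to 205 against 155 and 234 (-0.02 ± 0.17, adjusted p = 0.946). In knockout-labelled cells Cdc20, Plk1, Ube2c, Cdc25b and Ccnb1 each passed. Of these, Cdc20 and Plk1 each missed the threshold under 5 of the 16 other settings, and Ccnb1 under 2. Some of these settings kept 1 culture library. Ube2c and Cdc25b passed under all 16. Ube2c had 96.6 to 132 against 193 and 259 (-1.02 ± 0.17, adjusted p = 0.00274), and Cdc25b 104 to 133 against 219 and 244 (-0.91 ± 0.13, adjusted p = 0.00126). The difference between the genotypes in these falls is the contrast tested above, which no member passed. Cenpa had the smallest p among those that did not pass in knockout-labelled cells (adjusted p = 0.0623). Pttg1 and Cdc25c did not pass in either genotype, and Pttg1 lay between 25.6 and 32.1 in every OTII library.

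The counts vary with the libraries used. In wild type cells the count was 9 without node library 1, 17 without node library 3 and 15 without culture library 1, where 1306, 1373 and 1724 of all tested genes fell, against 1946 with every library. In knockout-labelled cells it was 17 without node library 4, 18 without culture library 1 and 9 without culture library 2, where 1268, 943 and 972 of all tested genes fell, against 1714. With scaling to T cell genes all 42 fell in both genotypes. That scaling moved the median of all tested genes to -0.50 and -0.60 and lowered 60.5% and 64.0% of them, and relative to those medians the 42 genes stood at -0.49 and -0.59. The split of all tested genes was then 525 higher and 6886 lower in wild type cells, against 1502 and 1946, and 535 and 7289 in knockout-labelled cells, against 1537 and 1714. T cell gene sums were 3510 to 4239 in culture and 4709 to 6074 in the node. Sums of 10 immediate early and stress genes were 109 to 225 in culture and 359.6 to 670.1 in the node, and their part in the result was not tested. Of 8 tested inhibitors 3 fell and 1 rose in wild type cells, and 5 fell and 1 rose in knockout-labelled cells. Cdkn1a fell in the node in both genotypes (-2.66 and -2.69) and Btg1 rose in wild type cells (0.62). Of 30 G1 to S and replication genes 4 fell in wild type and 10 in knockout-labelled cells, where 17.5% and 15.3% of all tested genes fell. Of the 56 further mitosis genes 36 fell in wild type and 30 in knockout-labelled cells, with Psrc1 lowest in p in both.

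**Figure D5:**
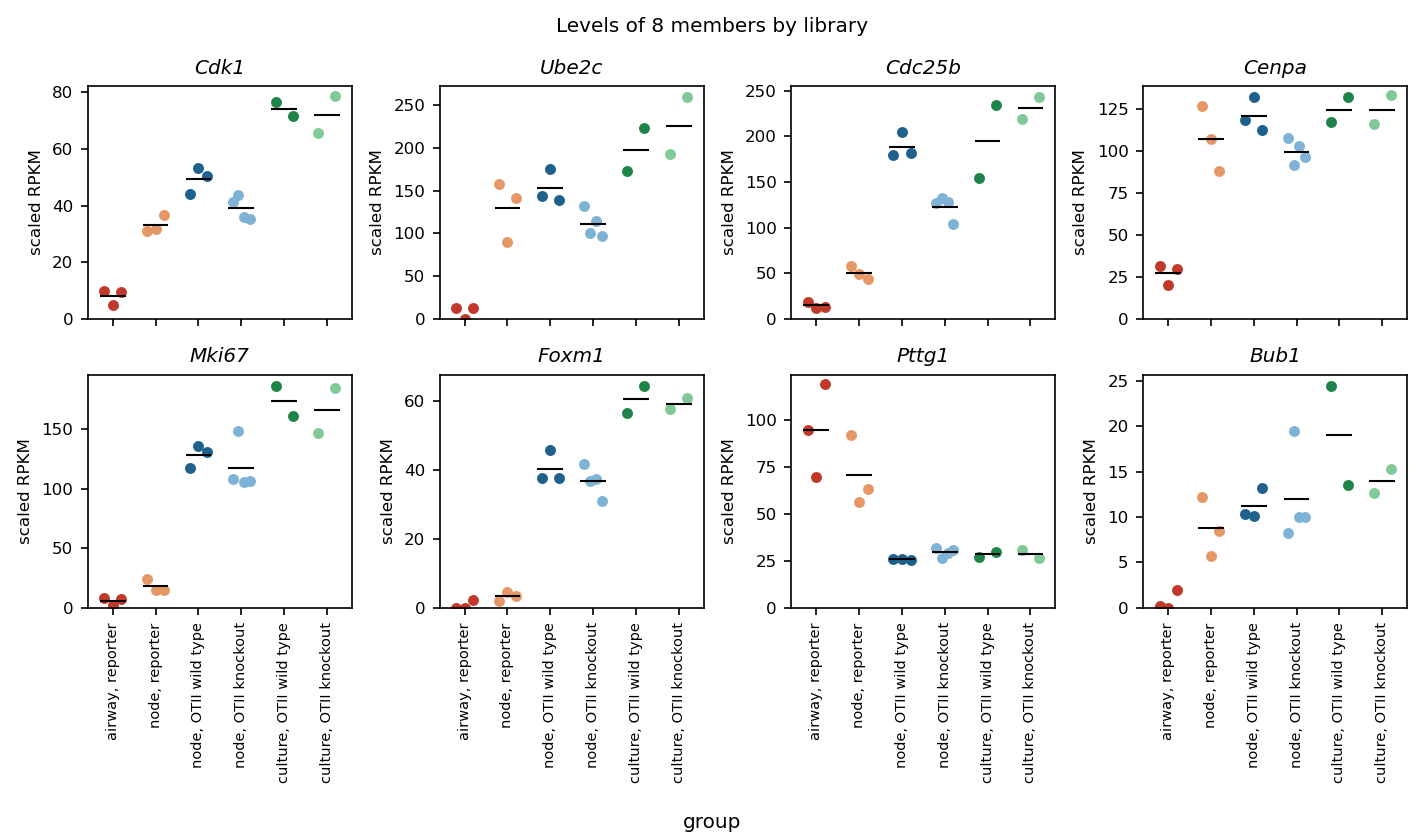
Scaled RPKM of 8 of the 42 genes on linear axes from 0, with 1 point per library and a line at the group mean where no library is at 0. Cdk1, Ube2c and Cenpa are lowest in the airway, Mki67 and Foxm1 are low in both reporter groups, Pttg1 is highest in the reporter groups, and 1 library stands out in Bub1 in each of the knockout-labelled node and wild type culture groups.

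The reporter and OTII node groups differed in pattern between genes. These are levels side by side without a test, since mouse line, sort and handling cannot be told apart. All 3 reporter libraries lay below all 3 wild type OTII node libraries in 18 of the 42 genes and above them in 3 (Ccnb1, Pttg1 and Spc25). Foxm1 had 2.09 to 4.59 in the reporter node and 37.5 to 45.6 in the OTII node. Mki67 had 14.7 to 24.3 against 117 to 136, and Top2a 46.7 to 72.4 against 133 to 151. Ccnb1 ran the other way, with 30.5 to 46.7 against 16.9 to 19.7, and so did Pttg1, with 56.4 to 92.1 against 25.6 to 26.0. Cenpa, Aurkb and Birc5 overlapped between the lines. Across the 42 genes this difference ran against log2 transcript length (r = -0.66, n = 42) and hardly with GC (r = -0.06). The shortest transcript is that of Pttg1 (732 bases) and the longest that of Cenpf (11102 bases). The part of length in the difference was not tested.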

How the data were processed

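RNA of 17 Smart-seq2 libraries was analysed from 1 table per library, which the authors deposited as RPKM for 24537 genes, each under 1 RefSeq transcript with its mm10 position per the file headers. Per the submitters' processing notes, HISAT2 2.0.4, HOMER and DESeq2 were used. What each step did is not given in the sources used here. The depth of each library was chosen so that deposited RPKM times transcript length and depth came closest to whole reads. At that depth at least 99.2% of values in each library were whole (tolerance 0.1, values below 100 reads). Since the depth was fitted to this end, the share is no separate check of it.

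Each library was divided by its median ratio to the typical library, computed from 6796 genes that reached an RPKM of 1 in every one of the 17 tables. Groups came from the sample titles. Tests were two-sided and moderated across genes: limma 3.58.1 under R 4.3.3, with a trended prior, took log2 of scaled RPKM plus a pseudocount of 1, which understates the change of low genes. The 2 groups of a comparison were fitted alone, and p-values were adjusted by Benjamini-Hochberg over every tested gene, with 0.05 as the threshold. To enter a test, a gene needed a scaled RPKM of 1 in at least the number of libraries of the smaller group. Fits were also run on simulated data with 1 spread for all genes of a comparison. That does not cover the wider spread and the values at 0 in the airway libraries. "Rose" and "fell" are used for genes past the threshold.

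The 42 genes and the 17 other lists were chosen with earlier results of these data known. By rule, Birc5, Aurkb, Plk1, Cdc20, Ube2c, Ccnb1, Cdk1, Mki67, Top2a and Foxm1 could be named in each comparison, with the 6 largest called differences, the 2 smallest p-values not called, and the 3 smallest p-values of each other list. Other members were named to complete a role, after their values were seen. Reporter and OTII tables used the same transcript for 40 of the 42. Alternatives covered pseudocount, filter, scaling, voom on reads, replicate block, a joint fit, each library left out and, chosen after seeing the data, GC correction, header numbers and a crossed pairing.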

Additional observations from a re-analysis of the deposited data

Results flagged for a closer look

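In the 1 group of 4 libraries, the knockout-labelled lymph node cells, the lowest and the highest library of each of the 42 genes were set against the spread of the others. Of 84 ends, 13 stood apart, all of them the highest value and all in library 2. Chance flags about 1 in 20 groups, and the genes share libraries, so the 13 are not independent. At the kinetochore and checkpoint, Bub1 had 19.5 (others 8.28 to 10.04), Ttk 12.9 (7.37 to 7.54), Cenpf 17.01 (11.1 to 11.8), Ndc80 33.8 (21.9 to 22.8), Nuf2 33.6 (19.0 to 19.9) and Spc25 24.3 (14.5 to 15.6). Among spindle and ring genes, Kif11, the motor that separates the poles, had 65.3 (38.8 to 42.7), Nusap1 62.2 (45.8 to 48.2), Hmmr 29.3 (17.6 to 18.6), Ckap2l 30.6 (24.1 to 24.2) and Anln 7.38 (5.67 to 5.78). On chromatin, Mki67 had 148 (105 to 108) and Top2a 184 (114 to 117). The other libraries lay close together in each, as this rule requires.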

How the results depend on the processing

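The count of members that fell in the airway comparison (25) was 14 with a pseudocount of 0.1, 11 with no filter and 9 with voom, and 4 to 29 with 1 library left out. Of all tested genes 146 of 10111, 98 of 14268 and 88 of 10111 fell there, against 233. With 1 library left out 30 to 295 fell. In the lymph node knockout comparison (4) the count of members was 1 with no filter, 7 on RPKM as deposited and 10 with GC correction. It was 1 to 11 with 1 library left out, and 0 to 1 rose with 1 library left out. Of all tested genes 861 of 16890, 974 of 10801 and 1735 of 10675 fell there, against 835 of 10869. With 1 library left out 402 to 1157 fell. In node against culture, wild type cells (26), the count of members was 17 with no filter and 42 with T cell gene scaling. It was 9 to 18 with 1 node library left out. Of all tested genes 2099, 6886 and 1306 to 1373 fell there, against 1946. In knockout-labelled cells (28) it was 42 with T cell gene scaling and 17 to 36 with 1 node library left out. Of all tested genes 7289 and 1268 to 2229 fell there, against 1714. In the contrast between settings (0) it was 1, Cdc25b, on RPKM as deposited, with voom and with GC correction. With 1 node library left out it was 0 to 1. Of all tested genes 200, 168, 481 and 105 to 200 were lower there, against 172. T cell gene scaling there moved the split of all tested genes from 270 higher and 172 lower to 151 and 154. Bub1 in culture (-0.37) ranged from -0.77 to 0.0303, and Cdc20 in wild type node against culture (-0.12) from -0.32 to 0.0767, with 1 library left out. The cause of these changes was not tested. The values at 0 in the airway libraries limit what could be seen of low members. These libraries listed 6, 14 and 1 of the members at 0 at depths of 16.8, 17.1 and 17.1 megareads. The reporter node libraries listed 0 at depths of 17.5, 16.3 and 16.5 megareads. The cause of the values at 0 was not tested.

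The replicate numbers were not taken to pair libraries, since the labels do not say so. Same-numbered libraries correlated at 0.005 to 0.027 in reporter mice, below 0 between genotypes in the node, at -0.01 and 0.33 between node and culture in wild type cells and at 0.067 and 0.079 in knockout-labelled cells. A fit with the number as a replicate block gave 26 in the airway comparison and 1 in the node knockout comparison, from which library 4 drops out. It gave 23 (wild type) and 11 (knockout-labelled) in node against culture, and 0 elsewhere. Node library 3 drops out of the wild type fit, and node libraries 3 and 4 out of the knockout-labelled one. Of all tested genes 173, 255, 1805 and 998 fell in these fits. The first part of the header number as a block gave 1 in the node knockout comparison, where 626 of 10869 tested genes fell. A crossed pairing in culture, where same-numbered libraries correlated at -0.19, called none of the 42.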
